A study of Mus musculus with 26 samples.

Results

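The matrix metalloproteinases (Mmp), their relatives with thrombospondin repeats (Adamts) and the tissue inhibitors of metalloproteinases (Timp) were examined in mouse osteosarcoma, a cancer whose cells make bone matrix. Every gene whose symbol in the array's annotation was Mmp, Adamts or Timp followed by a number was taken, other than Mmp9, and each was read from the brightest of its probe sets, by the mean of the 26 arrays. This gave 36 genes of 18194 named on the array, namely 17 Mmp, 15 Adamts and 4 Timp genes. Of these, 30 passed a filter on dim probe sets and were tested (14 Mmp, 12 Adamts and 4 Timp). The other 6 were dim in every group: Adamts19 stayed at or below 4.21 on the log2 scale, Mmp1a at or below 4.04, Adamts20 at or below 5.27, Mmp1b at or below 5.49, Mmp7 at or below 5.34 and Adamts3 at or below 5.83.

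Mmp and Adamts enzymes are zinc proteases that are made as inactive precursors, and many of them are activated outside the cell or at its surface by other proteases. Collagenases and gelatinases together break down fibrillar collagen, stromelysins cut a wide range of matrix proteins, and several Adamts enzymes cut the core proteins of proteoglycans such as aggrecan and versican. Timp proteins bind and block the active site. In bone, Mmp13 and Mmp14 take part in the turnover of the collagen matrix that osteoblasts lay down.

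RNA was measured on 26 arrays: 15 of primary osteosarcomas, 4 of osteosarcoma cell lines, 4 of secondary tumours and 3 of osteoblasts differentiated in culture, which the series calls WT and uses as its control. The titles of the secondary samples carry the code OPflR, which the labels do not explain, and no strain or age is given for the tumours. For all samples the labels say only that a mouse model was the source. Among the secondary tumours, numbers 29, 64 and 94 were passed on by transplantation, while number 66 is described as tumour tissue that came from a line, although its title names it a line. Nothing in the labels says that the cultures, lines or tumours of a group came from separate animals, so a p-value measures the spread between these samples, which may be partly technical.

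Array medians were 50.4 to 58.8 intensity units in primary tumours, 44.4 to 48.2 in lines, 54.9 to 58.1 in secondary tumours and 46.4 to 48.2 in osteoblast cultures, so that every tumour array lay above every cultured one, and no normalization was applied. Calls lost under quantile normalization are given beside each gene. The Gapdh ratio of 5′ to 3′ probe sets, a sign of RNA quality, was 0.656 to 1.03 in primary tumours, 1.04 to 1.08 in lines, 0.839 to 1.08 in secondary tumours and 0.916 to 0.967 in cultures, with lines above all primary tumours and cultures. The part of these array differences in the results was not tested. The precision of every value is limited by the number of arrays. The ratio of the added bacterial controls bioB and bioC parted the arrays at 0.6. A low ratio was found in 7 primary tumours, all 4 secondary tumours and all 3 osteoblast cultures, and a high ratio in 8 primary tumours and all 4 lines. For lines against osteoblasts and for lines against secondary tumours, the control ratio and the group therefore cannot be told apart. Macrophage markers had a mean of 8.32 to 10.72 in primary tumours, 5.11 to 5.29 in lines, 8.32 to 9.97 in secondary tumours and 5.35 to 5.47 in osteoblast cultures, and the defining marker C1qa was at the floor of the scale in all cultures. Of 15 such markers, by the rule for calls given below, 15 were higher in primary tumours than in cultures (6.58% of all genes). In lines 15 were lower than in primary tumours (7.03% of all genes). In secondary tumours 13 were higher than in cultures (7.7% of all genes), and 14 were lower in lines than in secondary tumours (8.4%). Endothelial markers had a median of 7.27 in primary tumours and ranged over 5.32 to 5.46 in lines, 6.69 to 8.02 in secondary tumours and 5.81 to 6.31 in cultures. Adipocyte markers stood at 11.47 to 11.52 in the cultures and at or below 7.56 in the other groups. Osteoblast markers had a mean of 8.07 to 11.85 in primary tumours, 7.62 to 9.48 in lines, 9.77 to 11.74 in secondary tumours and 10.62 to 10.75 in cultures. In such bulk samples, fewer cells of a type and less RNA per cell cannot be told apart, and the part these other cells have in the results below was not tested.

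A gene was called when its limma p-value, adjusted over 12888 genes, was below 0.05 and its fold at least 2, a difference of 1 on the log2 scale on which all levels and differences are given. Between primary tumours and osteoblasts, 7 members rose and 3 fell, which is 23.3% and 10% of those tested, beside 6.58% and 11.9% of all genes. Secondary tumours had 6 members higher and 5 lower than osteoblasts, or 20% and 16.7%, against a background of 7.7% and 10.8%. Lines had 0 members higher and 4 lower than osteoblasts (13.3% lower, with 1.58% of all genes higher and 6.64% lower). Against primary tumours, lines had 0 members higher and 5 lower (16.7% lower, with 4.72% and 7.03% of all genes). Lines also had 0 members higher and 5 lower than secondary tumours, where 4.77% and 8.4% of all genes were called. No member was called between secondary and primary tumours, and there 1 gene of all those tested, 0.00776%, was higher and 0% were lower. The median difference of the members was 0.29 for primary tumours, −0.22 for lines and 0.00 for secondary tumours against osteoblasts, while all genes had medians of −0.07, −0.10 and −0.02. With limma, an unadjusted p below 0.05 was reached against osteoblasts by 22 of the 30 members in primary tumours (50.4% of all genes), 13 in lines (29.1%) and 20 in secondary tumours (44.5%). It was reached by 10 for lines against primary tumours (46.7% of all genes), 11 for lines against secondary tumours (42%) and 4 for secondary against primary tumours (9.48%). In all, 15 members were called in at least 1 comparison and 15 in none. Among those called, Mmp20 and Adamts6 passed the filter on tumour arrays only, and Timp4 on culture arrays only. Their calls in these counts therefore came through the groups in which they are high. The 3 comparisons against osteoblasts share the same 3 cultures.

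**Figure D1:**
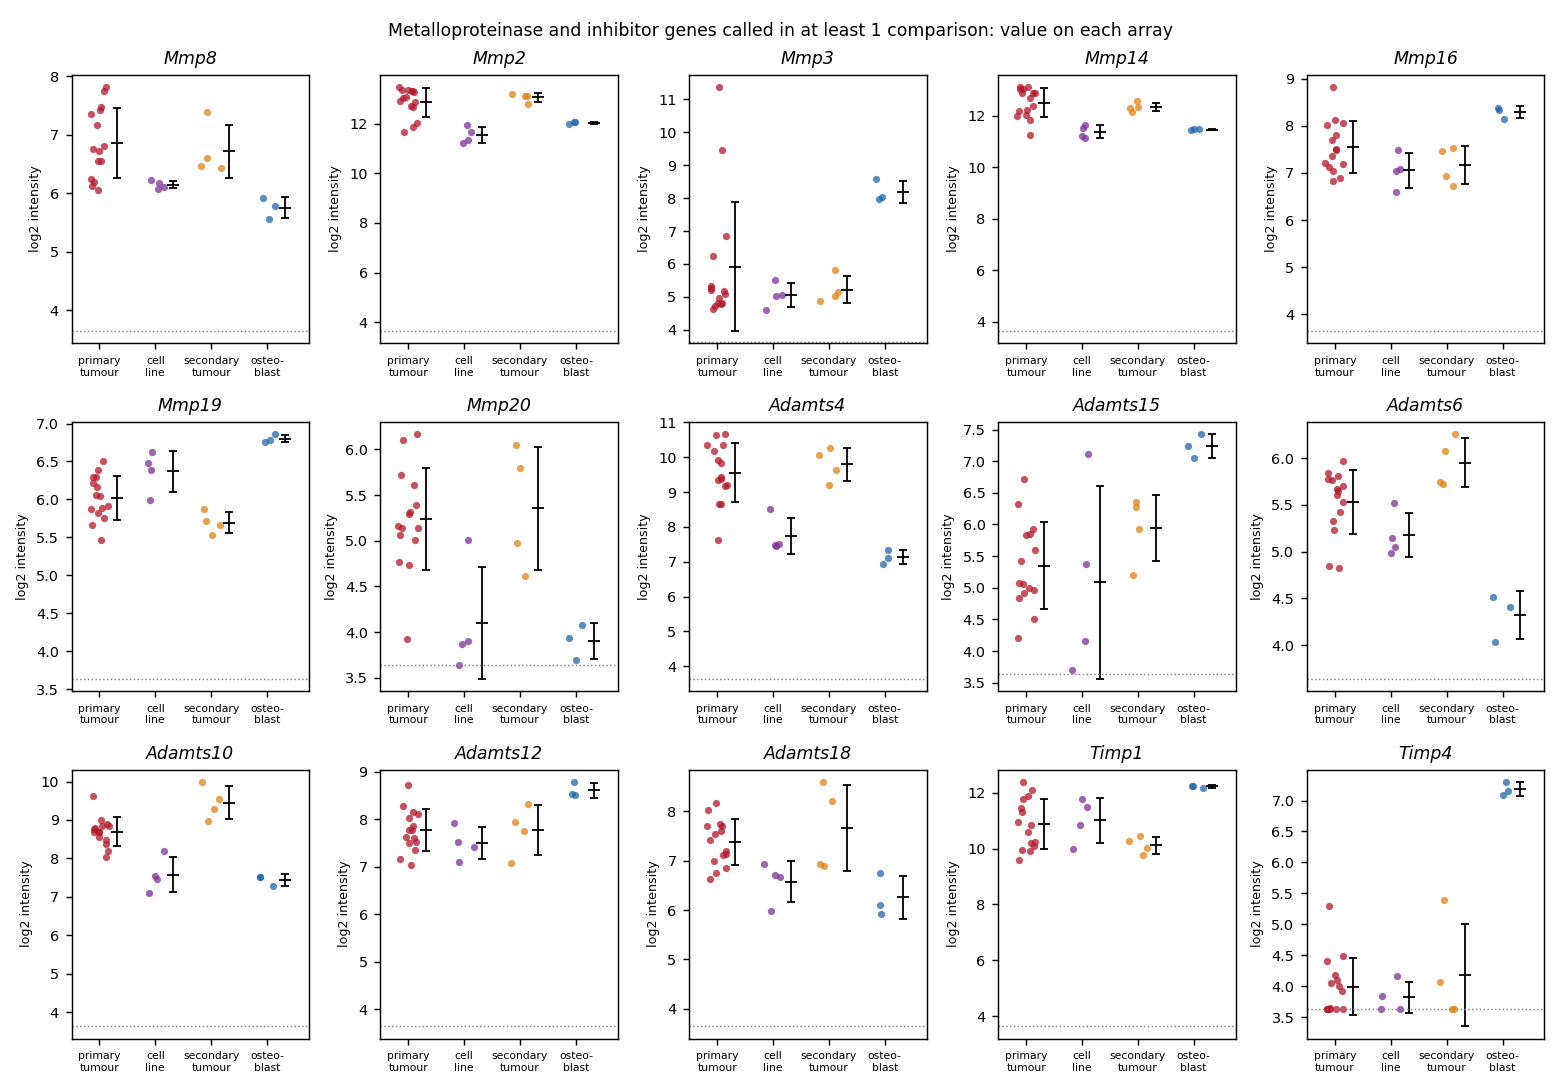
Log2 intensity on each array (points) for the 15 genes called in at least 1 comparison, in primary tumours, cell lines, secondary tumours and osteoblasts, with group means and SD (black bars) and the floor of the scale at 3.64 (dotted). Timp4 lies between 7.09 and 7.30 in the osteoblast cultures and at or below 5.39 on every other array, while every primary and secondary tumour lies above all cultures for Adamts4.

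Of the secreted collagenases, Mmp8, first known from neutrophils, rose in primary tumours. Its level was 6.05, 6.76 and 7.82 as lowest, median and highest in the 15 primary tumours, against 5.92, 5.78 and 5.56 in the 3 osteoblast cultures, with no overlap. The difference was 1.11 (SE 0.309, limma adjusted p = 0.005402, n = 15 and 3). Within the 7 low-ratio primary tumours, the set that shares the cultures' control ratio, it was 0.949 (adjusted p = 0.01971), and under quantile normalization 0.951 (adjusted p = 0.02207), both short of the 2-fold limit. Neutrophil markers averaged 5.73 to 9.18 in primary tumours, with a median of 6.22, and 5.13 to 5.52 in cultures, and S100a9 was at the floor in the cultures. Of the 5 markers tested, 1 was called higher in primary tumours than in cultures, beside 6.58% of all genes. Mmp8 was 6.11, 6.22, 6.08 and 6.17 in the lines and 7.39, 6.46, 6.44 and 6.59 in secondary tumours 29, 64, 66 and 94.

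Mmp13, the collagenase of bone and growth cartilage, passed in no comparison but varied widely between tumours. Its level was 8.08, 10.90 and 13.06 as lowest, median and highest in primary tumours, 10.86, 10.30, 8.68 and 8.76 in lines 176, 179, 182 and 213, 9.77, 11.50, 10.29 and 7.87 in secondary tumours 29, 64, 66 and 94, and 10.58, 10.55 and 10.94 in osteoblast cultures. The 3 cultures lay inside the range of the primary tumours. The difference between primary tumours and osteoblasts was 0.24, with an interval of −1.32 to 1.79 (adjusted p = 0.8201).

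Among the stromelysins, Mmp3 was low in most tumours and in all lines. Primary tumours had 4.64, 5.18 and 11.38 as lowest, median and highest, lines 4.60, 5.07, 5.03 and 5.52, secondary tumours 5.15, 5.03, 5.80 and 4.89, and osteoblast cultures 8.04, 8.58 and 7.97. All lines and secondary tumours lay below every culture, while primary tumours 183 and 188 lay above them. Mmp3 fell by 2.98 in secondary tumours (SE 1.13, adjusted p = 0.04291, n = 4 and 3). This call was lost when any 1 culture or any 1 secondary tumour was left out, with adjusted p-values of 0.05286 without tumour 66 to 0.1206 without culture 2, and also under quantile normalization (adjusted p = 0.05579) and without the filter on dim probe sets (0.06621). In primary tumours the difference of −2.28 (adjusted p = 0.05209) and in lines that of −3.14 (adjusted p = 0.06203) missed the threshold. In the low-ratio primary tumours alone it was −3.16 (adjusted p = 4.089e-07), and without tumour 188 it was −2.67 (adjusted p = 0.001365), without tumour 183 −2.54 (0.01688) and without tumour 330 −2.35 (0.04841). Mmp10 and Mmp11, the other 2 stromelysins tested, were called in none of the 6 comparisons. Mmp11 differed by −0.94 between primary tumours and osteoblasts (adjusted p = 0.01345), under 2-fold.

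Mmp12, the macrophage elastase, was near the floor in lines and cultures and ranged widely in tumours. Mmp12 passed the filter on 5 primary and 2 secondary tumour arrays and on no line or culture, so it was tested only through the groups in which it is high. Its level was 3.64, 4.51 and 9.39 as lowest, median and highest in primary tumours, 3.64, 3.80, 3.90 and 3.64 in lines, 7.48, 4.69, 4.72 and 6.18 in secondary tumours, and 3.64, 3.81 and 3.64 in cultures. The difference between primary tumours and osteoblasts of 1.81 (SE 0.969) did not pass (adjusted p = 0.1343), nor did that of 2.07 for secondary tumours (adjusted p = 0.1725). Over the 15 primary tumours its level had r = 0.543 and rho = 0.309 with the mean of the macrophage markers (permutation p = 0.03617 and 0.2583, adjusted over 180 relations 0.3619 and 0.7151).

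These enzymes are neighbours in the genome. On chromosome 9 of the RefSeq assembly GRCm38.p6, 10 Mmp genes follow each other with 0 other coding genes between them, in the order Mmp13, Mmp12, Mmp1b, Mmp3, Mmp1a, Mmp10, Mmp8, Mmp27, Mmp20 and Mmp7, and 9 of these are members, of which 6 were tested. In 2 primary tumours, numbers 183 and 188, 4 of the 6 tested genes had their highest levels. Mmp3 was 9.46 and 11.38 in these tumours, against at most 6.84 in the other primary tumours. Mmp13 was 13.05 and 13.06 against at most 11.87, Mmp12 8.45 and 9.39 against at most 8.20, and Mmp10 7.64 and 7.85 against at most 6.41. Mmp8 (7.17 and 7.42, against up to 7.82) and Mmp20 (5.16 and 5.06, against up to 6.16) did not have these tumours on top. The tumours were singled out after the values were seen, as the 2 with the highest Mmp3. Mmp3 is therefore counted by construction in the 4 of 6 above and in the 5 of 30 below. The same 2 tumours were the highest for 3.28% of all 12888 genes and for 5 of 30 members, the fifth being Mmp19. Both belong to the high-ratio set and also had the highest means of the neutrophil markers (8.93 and 9.18, with a median of 6.22 over primary tumours). Their macrophage markers averaged 10.49 and 9.80 (median 9.44) and their endothelial markers 8.18 and 7.81 (median 7.27), and the part of these cells was not tested.

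**Figure D2:**
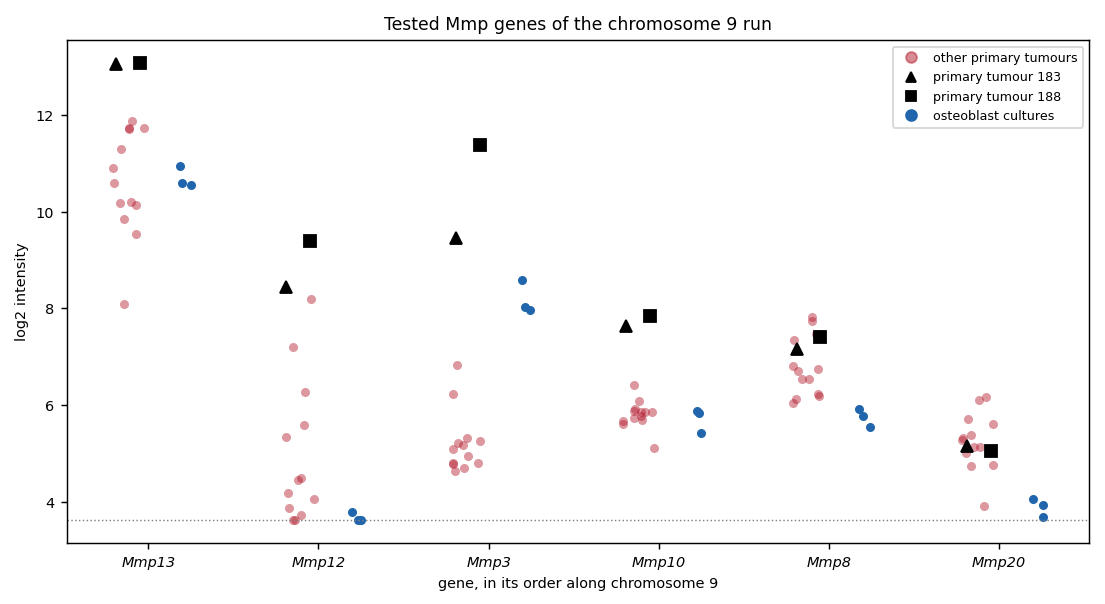
Log2 intensity of the 6 tested Mmp genes of the chromosome 9 run in primary tumours 183 (triangles) and 188 (squares), the other 13 primary tumours (red) and the 3 osteoblast cultures (blue), with the floor at 3.64 (dotted). Both tumours lie above all others for Mmp13, Mmp12, Mmp3 and Mmp10, and among the others for Mmp8 and Mmp20.

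The bases just before the transcription starts of these 6 genes are shown as a description, and their part in the levels was not tested. The RefSeq promoter table of GRCm38.p6 held 26 starts for 23 of the 36 members. Each line gives the 130 bases that end at the base before the start, on the plus strand: Mmp13 at chr9:7272384-7272513, Mmp12 (the second of its 2 listed starts, since the first had no match to the 3 motifs below) at chr9:7347244-7347373, Mmp3 at chr9:7445692-7445821, Mmp10 at chr9:7502212-7502341, Mmp8 at chr9:7558299-7558428 and Mmp20 at chr9:7628101-7628230. Capitals mark matches to TGANTCA, a loose pattern that includes the site bound by AP-1 factors, to AACCACA, a site of Runx factors, and to TATAAA, the TATA box.
Mmp13: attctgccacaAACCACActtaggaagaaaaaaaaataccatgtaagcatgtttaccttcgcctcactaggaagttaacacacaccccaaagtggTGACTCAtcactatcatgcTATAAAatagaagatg
Mmp12: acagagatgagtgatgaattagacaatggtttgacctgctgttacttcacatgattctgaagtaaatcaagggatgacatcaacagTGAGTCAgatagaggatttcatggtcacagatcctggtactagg
Mmp3: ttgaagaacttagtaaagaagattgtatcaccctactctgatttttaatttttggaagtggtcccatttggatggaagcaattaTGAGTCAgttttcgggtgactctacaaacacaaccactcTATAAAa
Mmp10: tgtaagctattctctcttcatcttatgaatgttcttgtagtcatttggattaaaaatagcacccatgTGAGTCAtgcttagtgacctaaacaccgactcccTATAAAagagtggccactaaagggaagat
Mmp8: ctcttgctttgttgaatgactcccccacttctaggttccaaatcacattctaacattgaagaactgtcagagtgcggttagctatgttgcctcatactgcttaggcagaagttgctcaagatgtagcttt
Mmp20: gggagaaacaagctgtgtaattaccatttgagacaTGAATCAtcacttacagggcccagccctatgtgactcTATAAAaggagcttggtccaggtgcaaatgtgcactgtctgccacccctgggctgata
Searched on both strands over 250 bases before the start, TGANTCA was found for 8 of the 23 members and in 6.749% of all 32851 promoters in the table. All 8 lie in the chromosome 9 run, and Mmp8 was the tested gene of the run without a match to any of the 3 motifs. In Mmp13 the AP-1 match began 35 bases before the listed start and the Runx match 119 bases before it. The Runx letters were present in 2 members, Mmp13 and Mmp7, and in 4.396% of all promoters, and TATAAA on the strand of the gene in 8 members and 7.592% of all promoters. A match is a description of the letters, and no match says only that these letters are not in the window. Mmp20 also matched TGANTCA and TATAAA, with the letters TGAATCA, where Mmp12, Mmp3 and Mmp10 had TGAGTCA and Mmp13 had TGACTCA. Mmp1a, Mmp1b and Mmp7, which were dim in every group, also had TGAGTCA and TATAAA. The TATAAA match began 58 bases before the listed start in Mmp20, 29 in Mmp10, 16 in Mmp13 and 7 in Mmp3.

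The gelatinase Mmp2, which digests denatured collagen and basement membrane collagen, was low in lines and high in both kinds of tumour. Primary tumours had 11.67, 13.02 and 13.49 as lowest, median and highest, lines had 11.93, 11.34, 11.68 and 11.24, secondary tumours 13.09, 12.81, 13.20 and 13.12, and cultures 12.07, 12.06 and 11.98. The secondary tumours lay above all cultures and lines. Mmp2 rose in secondary tumours against osteoblasts by 1.02 (SE 0.352, adjusted p = 0.02619), which was lost without any 1 culture, without tumour 66 (0.972) or without tumour 94 (0.999), with adjusted p-values of 0.05059 to 0.07082. It fell by 1.31 in lines against primary tumours (SE 0.259, adjusted p = 0.0003739) and by 1.51 against secondary tumours (SE 0.326, adjusted p = 0.001364). Against the 8 high-ratio primary tumours, the difference of lines was −0.979 (adjusted p = 0.007981), just under 2-fold. Between primary tumours and osteoblasts the difference was 0.82 (adjusted p = 0.0251), but 1.20 (adjusted p = 9.581e-06) for the low-ratio tumours alone and 1.02 under quantile normalization (adjusted p = 0.003545).

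Mmp14 is a membrane-bound collagenase that also activates the Mmp2 precursor at the cell surface. It was 11.24, 12.68 and 13.12 as lowest, median and highest in primary tumours, 11.66, 11.13, 11.19 and 11.53 in lines, 12.14, 12.35, 12.30 and 12.55 in secondary tumours, and 11.47, 11.47 and 11.42 in cultures. In primary tumours it rose by 1.04 (SE 0.286, adjusted p = 0.004875), and all primary tumours other than the lowest, number 183, lay above the cultures. Without tumour 119 or tumour 353 the difference was 0.999 and 0.998, and with the high-ratio tumours alone 0.939. In lines it fell by 1.12 against primary tumours (SE 0.254, adjusted p = 0.001376), which came to −0.996 under quantile normalization and −0.866 with the mean of its probe sets, both under 2-fold. The secondary tumours differed from cultures by 0.88 (adjusted p = 0.04961), below 2-fold, and by 1.08 under quantile normalization (0.01467).

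Mmp16, another membrane-type enzyme, was 6.82, 7.49 and 8.83 as lowest, median and highest in primary tumours, 6.60, 7.09, 7.49 and 7.03 in lines, 6.71, 7.54, 7.47 and 6.93 in secondary tumours, and 8.34, 8.39 and 8.14 in cultures. It fell by 1.24 in lines (SE 0.356, adjusted p = 0.01888) and in secondary tumours by 1.13 (SE 0.356, adjusted p = 0.01608), and no line or secondary tumour reached a culture. The call in lines was lost without culture 1 or 2 (adjusted p = 0.0687 and 0.074) or line 176 (0.06167), and that in secondary tumours without culture 1 or 2 (0.05063 and 0.05614) or tumour 29 (0.05133). The line call was also lost under quantile normalization (−0.976, adjusted p = 0.113) and scaling to a common 75th percentile (−1.06, 0.06726), and both calls with the mean of the probe sets (−0.797 in lines and −0.965 in secondary tumours, adjusted p = 0.2258 and 0.08177). The Mmp16 probe sets differed in direction: in secondary tumours the other 2 gave −2.52 (adjusted p = 0.03429) and 0.75 (adjusted p = 0.01473). In low-ratio primary tumours alone Mmp16 differed by −1.13 (adjusted p = 0.0005379), and in the high-ratio ones by −0.403 (adjusted p = 0.2319). The remaining membrane-type members, Mmp17 and Mmp24, were called in none of the comparisons.

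Of the 3 Mmp genes outside these classes, Mmp20, the enamelysin that processes enamel proteins in teeth, was near the floor in cultures and lines. Its level was 3.92, 5.16 and 6.16 as lowest, median and highest in primary tumours, 5.01, 3.87, 3.64 and 3.90 in lines 176, 179, 182 and 213, 6.04, 4.97, 4.62 and 5.80 in secondary tumours, and 4.07, 3.69 and 3.94 in cultures. It rose by 1.33 in primary tumours (SE 0.338, adjusted p = 0.002664) and by 1.45 in secondary tumours (SE 0.409, adjusted p = 0.007495), and fell by 1.13 in lines against primary tumours (adjusted p = 0.004877) and by 1.25 against secondary tumours (adjusted p = 0.01469). Mmp20 passed the filter, at 5.72 on the log2 scale, on 3 primary and 2 secondary tumour arrays and on no line or culture, so it was tested only through the groups in which it is high. All 4 calls rest on low signal: with the floor at the 40th percentile, the rises were 0.30 and 0.43 and the falls of the same size. The difference of lines from primary tumours was −0.987 under quantile normalization. Without line 182 it was −0.977 and that from secondary tumours −1.10 (adjusted p = 0.05142), and the call against secondary tumours was also lost without tumour 29 or 94 (adjusted p = 0.05865 and 0.05038).

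Mmp19, a widely made secreted enzyme, was 5.47, 6.05 and 6.50 as lowest, median and highest in primary tumours, 5.99, 6.48, 6.38 and 6.63 in lines, 5.72, 5.53, 5.66 and 5.87 in secondary tumours, and 6.76, 6.79 and 6.86 in cultures, which were above all other arrays. It fell by 1.10 in secondary tumours (SE 0.203, adjusted p = 0.0001897). The difference of −0.78 in primary tumours (adjusted p = 0.0006278) was under 2-fold. The third, the membrane-anchored Mmp23, was not called.

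The clearest rise among the proteoglycan-cutting Adamts enzymes was that of the aggrecanase Adamts4. Primary tumours had 7.61, 9.43 and 10.66 as lowest, median and highest, lines 8.52, 7.45, 7.49 and 7.51, secondary tumours 9.21, 10.07, 10.25 and 9.64, and cultures 7.11, 7.33 and 6.94. Every tumour lay above every culture. Adamts4 rose by 2.43 in primary tumours (SE 0.435, adjusted p = 8.689e-05) and by 2.66 in secondary tumours (SE 0.525, adjusted p = 0.0003966). In lines it fell by 1.82 against primary tumours (SE 0.387, adjusted p = 0.000766) and by 2.05 against secondary tumours (SE 0.486, adjusted p = 0.002881), and it differed from osteoblasts by 0.61 without passing. These 4 calls were kept under every alternative run, although with the mean of both probe sets the rises were 1.14 and 1.58. A second, dimmer Adamts4 probe set averaged 6.34 in primary tumours and 6.49 in osteoblasts and was not called (−0.16, adjusted p = 0.8138).

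Adamts15, which cuts versican and aggrecan, went the other way. It was 4.21, 5.07 and 6.72 as lowest, median and highest in primary tumours, 4.16, 5.37, 3.70 and 7.11 in lines 176, 179, 182 and 213, 6.36, 6.28, 5.93 and 5.21 in secondary tumours, and 7.42, 7.24 and 7.05 in cultures. It fell by 1.89 in primary tumours, all below the cultures (SE 0.486, adjusted p = 0.002947), and by 2.15 in lines (SE 0.586, adjusted p = 0.01323), where line 213 overlapped the cultures. The call in lines was lost without culture 1 (adjusted p = 0.0588) or line 182 (−1.69, adjusted p = 0.05745), and in a fit of these 2 groups alone (adjusted p = 0.07349). In secondary tumours the difference of −1.30 did not pass (adjusted p = 0.08778).

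Adamts1, Adamts5, Adamts8 and Adamts9 completed the 6 tested proteoglycanases and were not called from their brightest probe sets. For Adamts5, the other main aggrecanase, and for Adamts9, probe sets of the same gene disagreed. The brightest Adamts5 set averaged 8.69 in primary tumours and 9.01 in osteoblasts, whereas the other sets averaged 7.78 against 10.62 (adjusted p = 1.548e-05) and 8.03 against 9.85 (adjusted p = 2.217e-06). These same 2 sets were higher in lines, at 9.82 and 9.20, than in primary tumours, at 7.78 and 8.03 (adjusted p = 0.0002771 and 0.0002036). The brightest Adamts9 set averaged 9.65 in primary tumours and 9.29 in osteoblasts, and the others 7.65 against 5.41 (adjusted p = 0.0004685) and 6.61 against 4.69 (adjusted p = 0.004627).

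**Figure D3:**
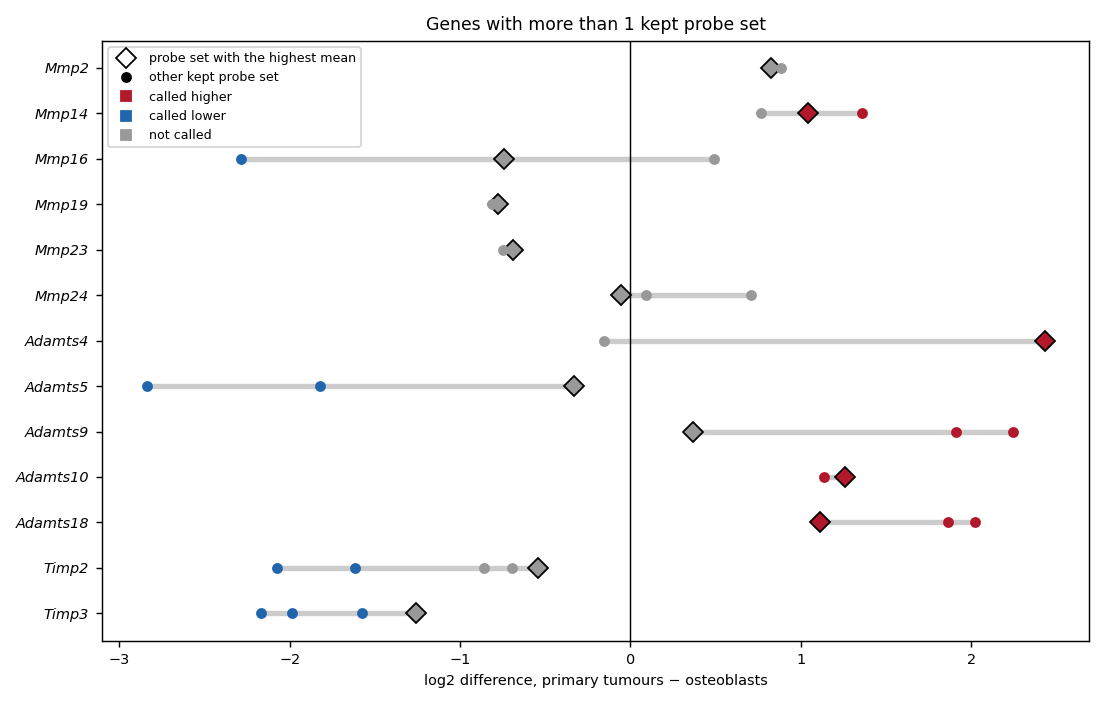
Log2 difference between primary tumours and osteoblasts for each kept probe set of the members with more than 1, with the probe set of highest mean as an outlined diamond, other sets as dots, and colour for calls among all kept probe sets. Adamts10 and Adamts18 have all sets called higher, while Mmp14, Mmp16, Adamts4, Adamts5, Adamts9, Timp2 and Timp3 mix called and uncalled sets.

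Of the 6 other Adamts genes tested, 3 rose in primary tumours and 3 in secondary tumours, in each case Adamts6, Adamts10 and Adamts18. Of all genes, 6.58% and 7.7% rose in these comparisons, and Adamts6 passed the filter on tumour arrays only. Adamts10, which binds fibrillin microfibrils, was 8.04, 8.69 and 9.63 as lowest, median and highest in primary tumours, 7.46, 7.09, 7.55 and 8.19 in lines, 9.56, 9.99, 9.29 and 8.98 in secondary tumours, and 7.52, 7.53 and 7.27 in cultures. No tumour overlapped a culture. It rose by 1.26 in primary tumours (SE 0.234, adjusted p = 0.0001368) and by 2.01 in secondary tumours (SE 0.283, adjusted p = 8.549e-06). In lines it fell by 1.88 against secondary tumours (SE 0.262, adjusted p = 2.161e-05) and by 1.12 against primary tumours (SE 0.209, adjusted p = 0.0002103). Against primary tumours the difference was −0.962 without line 179, −0.970 with the high-ratio tumours alone and −0.835 with the mean of its probe sets, all under 2-fold.

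Adamts6, the closest relative of Adamts10, had 4.82, 5.65 and 5.97 as lowest, median and highest in primary tumours, 5.52, 5.15, 5.05 and 4.99 in lines, 5.73, 6.08, 6.26 and 5.75 in secondary tumours, and 4.03, 4.52 and 4.41 in cultures. It rose by 1.21 in primary tumours (SE 0.198, adjusted p = 2.927e-05) and by 1.63 in secondary tumours (SE 0.239, adjusted p = 1.452e-05), with no overlap in either. Its difference of 0.86 between lines and osteoblasts (adjusted p = 0.01534) was below 2-fold. Adamts6 passed the filter on 5 primary and 4 secondary tumour arrays and on no line or culture, so it was tested only through the groups in which it is high. With the floor at the 40th percentile the differences were 0.507 and 0.898, and under quantile normalization that in primary tumours was 0.958.

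Adamts18 was 6.63, 7.41 and 8.18 as lowest, median and highest in primary tumours, 6.72, 6.94, 6.67 and 5.97 in lines, 6.90, 8.60, 8.22 and 6.92 in secondary tumours, and 6.11, 5.92 and 6.75 in cultures. It rose by 1.11 in primary tumours (SE 0.323, adjusted p = 0.007273) and by 1.40 in secondary tumours (SE 0.390, adjusted p = 0.007043), and fell by 1.09 in lines against secondary tumours (SE 0.361, adjusted p = 0.02479). The rise in primary tumours was 0.944 without culture 2 (adjusted p = 0.06657) and 0.823 in low-ratio tumours (adjusted p = 0.07084). The fall in lines was lost without line 213, tumour 64 or tumour 66 (−0.888, −0.775 and −0.903), under quantile normalization (−0.895, adjusted p = 0.08144), with scaling to a common 75th percentile (−0.934, 0.0659) and in a fit of these 2 groups alone (0.07766). With the mean of its 3 probe sets, the difference was −2.32 between lines and secondary tumours and 2.27 between secondary tumours and osteoblasts.

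Adamts12, which cuts cartilage oligomeric matrix protein, was 7.04, 7.77 and 8.72 as lowest, median and highest in primary tumours, 7.11, 7.53, 7.42 and 7.93 in lines, 7.75, 8.33, 7.95 and 7.08 in secondary tumours, and 8.79, 8.53 and 8.53 in cultures. All lines and secondary tumours lay below the cultures, and the primary tumours overlapped them. It fell by 1.12 in lines (SE 0.314, adjusted p = 0.01576), but not without culture 1 (adjusted p = 0.07794) or line 176 (−0.989, adjusted p = 0.05267), nor under quantile normalization (−0.850, adjusted p = 0.08345), and it was under 2-fold with scaling to a common 75th percentile (−0.938). Adamts7, which also cuts that protein, and Adamts16 were not called, although Adamts7 differed by 1.52 between the high-ratio primary tumours and the cultures (adjusted p = 0.001059). Its mean was 5.61 in these tumours, 4.39 in the low-ratio ones, which share the cultures' control ratio, and 4.08 in the cultures. Adamts7 was above the filter level on 3 primary tumours and 1 line and on no culture, and 1 culture was at the floor.

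**Figure D4:**
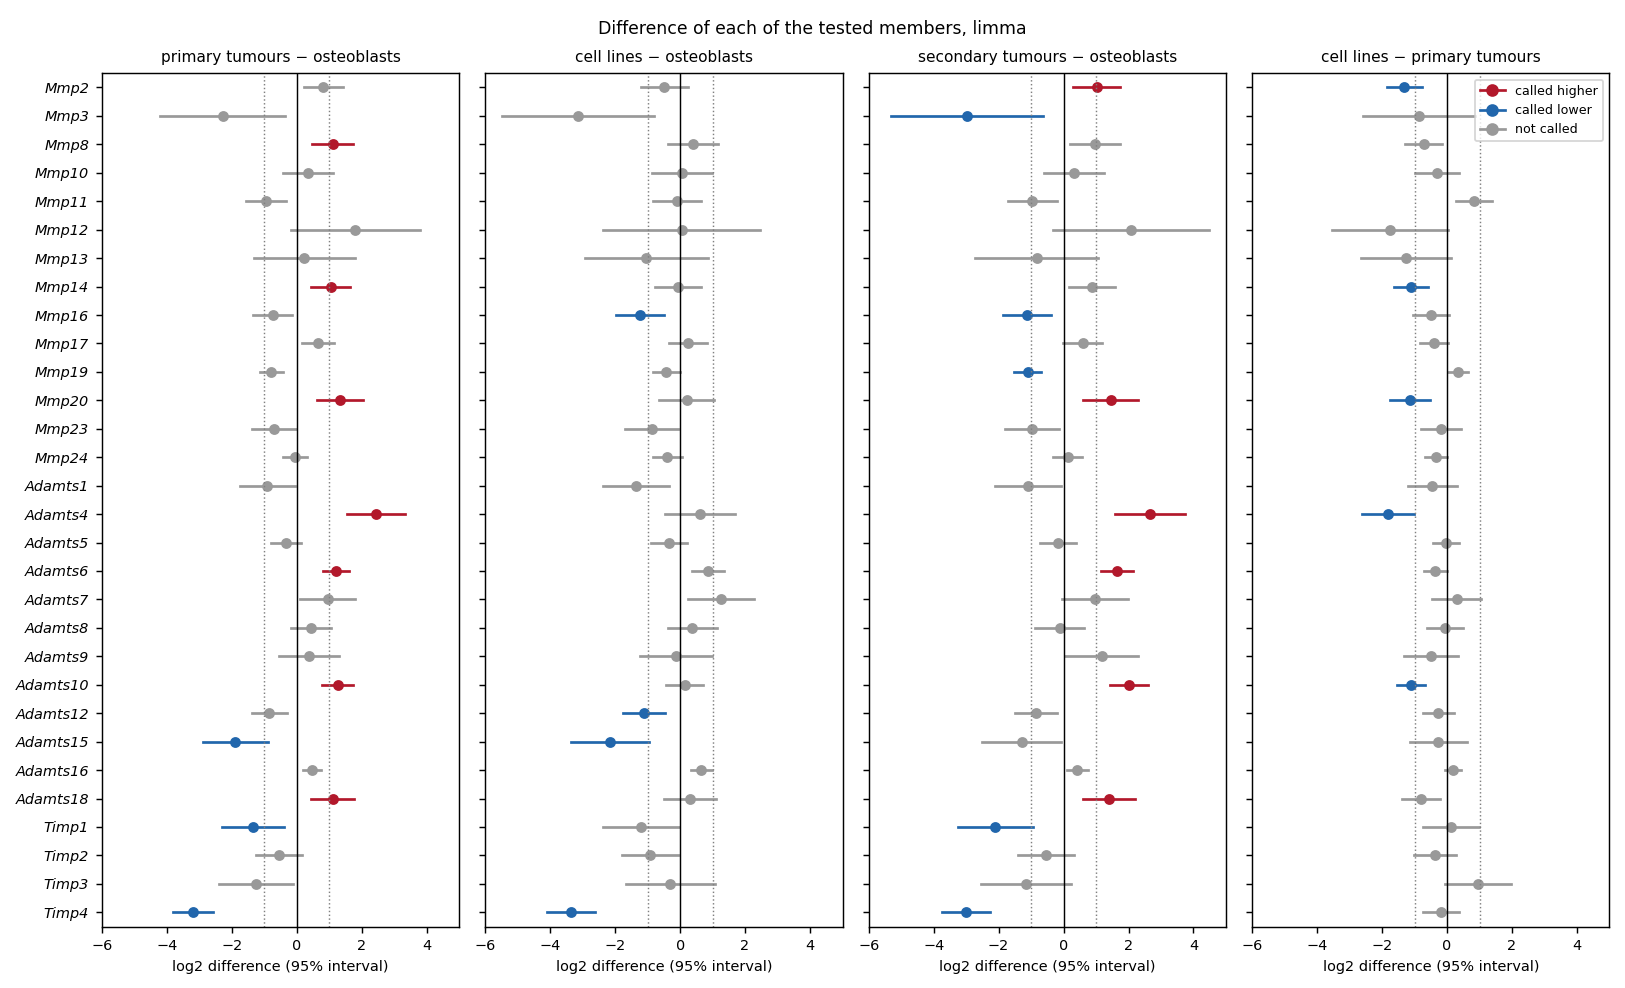
Log2 difference with its 95% interval for each of the 30 tested members in 4 comparisons: primary tumours, cell lines and secondary tumours each minus osteoblasts, and cell lines minus primary tumours. Red and blue mark genes called higher and lower, and dotted lines mark a 2-fold change. Timp4, which passed the filter on culture arrays alone, is called lower in all 3 comparisons against osteoblasts. The 5 genes called between lines and primary tumours are all lower in lines.

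Of the 4 inhibitors, 2 fell in primary tumours and 2 in secondary tumours (Timp1 and Timp4), and 1 in lines (Timp4). The shares of all genes that fell were 11.9%, 10.8% and 6.64% in the same order. Timp4 was 3.64, 3.92 and 5.30 as lowest, median and highest in primary tumours, 4.17, 3.64, 3.84 and 3.64 in lines 176, 179, 182 and 213, 3.64, 5.39, 4.07 and 3.64 in secondary tumours 29, 64, 66 and 94, and 7.16, 7.30 and 7.09 in cultures. It fell by 3.18 in primary tumours (SE 0.299, adjusted p = 9.276e-09), by 3.36 in lines (SE 0.361, adjusted p = 3.116e-07) and by 3.00 in secondary tumours (SE 0.361, adjusted p = 9.869e-07). Timp4 passed the filter on the 3 culture arrays alone, so it was tested only through the group in which it is high and had to differ. The floor also sets the size of the fall: with it at the 40th percentile the differences were −2.11, −2.13 and −2.04, and 6 primary tumours, 2 lines and 2 secondary tumours were at the floor. Timp4 is made in adipose tissue and heart, among others, and the adipocyte markers, which the cultures expressed, were also low in tumours and lines (6 of 6 tested were called lower in each comparison), a part that was not tested.

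Timp1, a secreted inhibitor of most Mmp enzymes, was 9.58, 10.84 and 12.39 as lowest, median and highest in primary tumours, 9.97, 11.48, 11.76 and 10.84 in lines, 10.46, 9.75, 10.25 and 10.03 in secondary tumours, and 12.18, 12.25 and 12.24 in cultures. Every secondary tumour and line lay below the cultures. Its fall of 2.10 in secondary tumours (SE 0.565, adjusted p = 0.005583) was kept under every alternative run. In primary tumours it fell by 1.34 (SE 0.468, adjusted p = 0.02321), but tumour 188 overlapped the cultures and the call was lost without any 1 culture (adjusted p = 0.06999, 0.07845 and 0.07348 without cultures 1, 2 and 3), with the high-ratio tumours alone (−0.992) and under quantile normalization (−1.14, adjusted p = 0.05828). In lines the difference of −1.21 did not pass (adjusted p = 0.1539).

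Timp2, which also takes part in the activation of Mmp2 by Mmp14, was 10.49, 12.07 and 13.01 as lowest, median and highest in primary tumours, 11.60, 11.30, 12.20 and 11.49 in lines, 11.71, 11.37, 12.64 and 12.39 in secondary tumours, and 12.66, 12.58 and 12.45 in cultures. Its brightest probe set was not called, with a difference of −0.54 in primary tumours. When the 5 kept Timp2 probe sets were averaged, the differences from cultures were −1.16 in primary tumours (adjusted p = 0.001285), −1.31 in lines (0.007325) and −1.36 in secondary tumours (0.00232).

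Timp3, which binds to the matrix and blocks Adamts4 and Adamts5 as well as Mmp enzymes, was 8.93, 10.44 and 12.43 as lowest, median and highest in primary tumours, 10.80, 11.82, 11.55 and 11.19 in lines, 10.95, 9.15, 9.98 and 11.88 in secondary tumours, and 11.70, 11.63 and 11.60 in cultures. The difference of −1.26 in primary tumours did not pass from the brightest set (adjusted p = 0.06958). The other 3 Timp3 sets were lower in primary tumours, with differences of −1.57, −1.99 and −2.17 (adjusted p = 0.003991, 0.003351 and 0.0003598), and higher in lines than in primary tumours by 1.01, 1.22 and 1.46 (adjusted p = 0.0372, 0.04069 and 0.005544). The brightest set differed by −1.89 in high-ratio primary tumours (adjusted p = 0.00308) and by −0.533 in low-ratio ones (adjusted p = 0.3975). Against high-ratio primary tumours, lines were higher by 1.59 (adjusted p = 0.008064). The 2 highest primary tumours were numbers 29 and 94, and without either the difference from osteoblasts passed (−1.37, adjusted p = 0.03895, and −1.40, adjusted p = 0.02661).

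The 5 genes that fell in lines against primary tumours were Adamts4, Mmp2, Mmp20, Adamts10 and Mmp14. Their differences between lines and osteoblasts were 0.61, −0.49, 0.20, 0.14 and −0.08, none of them called. Macrophage and endothelial markers had the same order, low in both cultured groups and high in both tumour groups. Over the 15 primary tumours alone, the 5 genes had r = −0.009, −0.215, 0.032, −0.168 and −0.442 with the macrophage markers. With the endothelial markers r was −0.080, −0.109, 0.051, −0.074 and −0.628, and none of these relations passed adjustment. The part of these cells in the falls was not tested.

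Secondary and primary tumours had no member past the threshold. The most negative difference was that of Mmp13, −1.07 with an adjusted p of 0.6116, and the most positive that of Adamts9, 0.81. A block for the shared tumour numbers 29, 64, 66 and 94 also gave 0 calls.

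Other genes of matrix proteolysis were read from a list of 44, of which 33 were tested. In primary tumours 2 rose and 6 fell against osteoblasts, beside 6.58% and 11.9% of all genes: Plat, the tissue plasminogen activator, rose by 1.35, and the procollagen proteinase enhancer Pcolce2 fell by 4.40, Adamtsl3 by 3.02 and Adamtsl4 by 2.30. In secondary tumours 2 rose and 6 fell (7.7% and 10.8% of all genes), with Pcolce2 at −4.10, Adamtsl3 at −3.02 and the heparanase gene Hpse at 1.87. In lines 2 rose and 8 fell against osteoblasts, where 1.58% and 6.64% of all genes were called. Of these falls, 2 were among 5 tolloid-related genes, 1 among 5 Adamts-like genes and 0 among the other 3 groups of the list. The other 5 were among 8 genes listed as regulators of metalloproteinases. These 5 were the proprotein convertase Pcsk5 (−3.10), the membrane-anchored Mmp inhibitor Reck (−2.68), the Kunitz inhibitor Tfpi2 (−2.50), the convertase Furin (−1.51), which activates membrane-type Mmp precursors, and Cst3 (−1.49). Cst3 was listed in this group although its protein inhibits cysteine proteases. Against primary tumours, lines had 2 of the list higher and 5 lower (4.72% and 7.03% of all genes), with Pcsk5 at −3.38, Fap at −2.90, Reck at −2.52 and Adamtsl3 at 2.46. Lines had 2 higher and 7 lower than secondary tumours (4.77% and 8.4% of all genes), again with Pcsk5 (−3.49) and Reck (−3.28) lowest. Secondary and primary tumours differed in 0 of these genes.

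Within the 15 primary tumours, the members that varied most were Mmp3 (SD 1.96), Mmp12 (1.95), Mmp13 (1.34) and Timp3 (1.01), and Adamts16 varied least (0.209). The level of each of 30 members was set against the mean of 6 lists of cell markers, 180 relations in all. By permutation, 23 had an unadjusted p below 0.05 for Pearson's r and 15 for Spearman's rho, and 0 passed after adjustment by either. The smallest adjusted p, 0.1326, was shared by 3 relations, given here as values that fail the correction. Mmp23 with the osteoclast markers had r = −0.751 and rho = −0.675 (permutation p = 0.00079 and 0.00732), and r = −0.616 without the 2 tumours farthest from the median. Mmp10 with the endothelial markers had r = 0.742 and rho = 0.632 (permutation p = 0.00194 and 0.01373), and r = 0.661 without those farthest. The latter value still includes tumour 188, which had the highest Mmp10 (7.85). Tumours 183 and 188, the 2 with the highest Mmp10, are both in the high-ratio set. Timp4 with the skeletal muscle markers had r = 0.687 and rho = 0.644 (permutation p = 0.00221 and 0.01142), and r = 0.782 without those farthest. Timp4 was above the filter level on 0 of the 15 primary tumours and at the floor on 6, so its relations describe signal near the floor. Within the high-ratio and low-ratio tumours, r was −0.761 and −0.774 for Mmp23, 0.893 and 0.623 for Mmp10, and 0.659 and 0.717 for Timp4.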

How the data were processed

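Deposited values were 1 linear intensity per probe set (45101 probe sets, 64 of them controls, on 26 one-colour arrays). Per the labels' protocols, RNA was copied from its poly(A) end into biotin-labelled cRNA; the steps by which the authors reached these intensities (probe summary, scaling) were not given in the sources used here. For every array, deposited intensities below 12.5, the 20th percentile over the whole table, were set to that floor, and log2 was taken with no normalization. Probe sets stayed in where 3 or more arrays were above 52.6, the median over the table, leaving 27344 probe sets and 12888 genes, each represented by its kept set of highest mean. Probe sets were named from the platform annotation (34958 with 1 symbol, 932 with several, 9211 unnamed), with 34754 matched by gene identifier to RefSeq GRCm38.p6.

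All 4 groups entered 1 model in limma 3.58.1 (R 4.3.3; lmFit and eBayes), with 6 contrasts and Benjamini-Hochberg adjustment over all genes, and the fit was tested on simulated data. Every adjusted p for a gene is limma's. Members were named by the rule given at the start, each called member and each Timp gene with its values in every group. The members and the gene lists were chosen with earlier results of these data known. Secondary and primary tumours that share a number in the labels deviated together (r = 0.449, 0.302, 0.224 and 0.642 for numbers 29, 64, 66 and 94, each the best match of 15), so a block for the number was an alternative there. Correlations used 100000 permutations, two-sided (scipy 1.17.1). No pair of arrays was a copy: the most alike, primary and secondary tumour 66, had r = 0.967. Alternatives changed the scaling, the floor, the filter, the probe set, the array weights, the arrays in the fit and the set of control ratio.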

Additional observations from a re-analysis of the deposited data

Results flagged for a closer look

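In 60 sets of 4 arrays, 30 members in the lines and 30 in the secondary tumours, 3 arrays lay far from the other 3 of their group; chance alone puts about 1 group in 20 there. Adamts4 was 8.52 in line 176, above 7.45 to 7.51 in the other lines. Adamts16 was 6.30 in line 176, below 6.61 to 6.66 in the others. Mmp8 was 7.39 in secondary tumour 29, above 6.44 to 6.59 in the others.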

How the results depend on the processing

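Of 35 calls of a member in a comparison, 15 were kept under every alternative that tested them (Timp4, Adamts15 and Mmp19 did not pass the filter at the 75th percentile), 20 were lost under at least 1, and 0 were reversed. The 15 include the calls of Timp4, which passed the main filter on culture arrays alone. The number called against osteoblasts was 10 in primary tumours (8 to 12 with 1 array left out), 4 in lines (1 to 4) and 11 in secondary tumours (8 to 13). It was 5 for lines against primary tumours (4 to 6), 5 for lines against secondary tumours (4 to 8) and 0 for secondary against primary tumours (0 to 0). The 1 call for lines came without osteoblast culture 1, and the 8 against secondary tumours without line 176. Quantile normalization gave 8 (6 higher, 2 lower) for primary tumours, 2 for lines and 13 (8 higher, 5 lower) for secondary tumours against osteoblasts, 3 for lines against primary tumours and 6 for lines against secondary tumours, where Mmp11 was higher in lines by 1.07 and 5 were lower, and the all-gene calls for lines against osteoblasts changed to 237 higher and 542 lower. A filter at the 75th percentile left 6, 2 and 7 against osteoblasts for primary tumours, lines and secondary tumours, with fewer genes tested. Array weights gave 7 for lines and 17 for secondary tumours against osteoblasts, 8 for lines against primary and 8 against secondary tumours. Testing every kept probe set, an alternative chosen after seeing the data, gave 25, 7 and 29 probe sets against osteoblasts in the same order, 15 for lines against primary and 15 against secondary tumours. With the mean of its probe sets, Adamts5 was higher in lines than in primary tumours by 1.06 (limma adjusted p = 0.001374), where the brightest set gave −0.02. Why these counts changed was not tested, beyond the number of genes or probe sets. A replicate block for the tumour number gave 7 calls for lines against primary tumours (Timp3 at 1.01 and Adamts18 at −1.09 added) and 0 for secondary against primary tumours. Lines and primary tumours of the same number did not deviate together (r = 0.0355, 0.0813 and 0.0387 for 176, 179 and 182). Lines and tumours also differed in their cell markers, so these values cannot tell whether a line came from the tumour of its number. Low signal limits Timp4, Mmp20, Mmp12, Adamts6 and Adamts7, whose values lie near the floor in at least 1 group. It also limits the falls of Adamts15, which was 3.70 in line 182 and 4.16 in line 176. Adamts15 was above the filter level on 1 of 4 lines and 5 of 15 primary tumours.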
